A study of Mus musculus with 4 samples.

Results

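Secreted WNT inhibitors are proteins that cells release to hold WNT signalling in check, and 10 of their genes were followed here through RNA sequencing of cells cultured from the mouse inner ear. The genes were taken by symbol: the secreted frizzled-related protein genes Sfrp1, Sfrp2, Sfrp4, Sfrp5 and Frzb, the Dickkopf genes Dkk1, Dkk2 and Dkk3, and Wif1 and Sostdc1. All 10 were present among the 24346 gene symbols of the deposited files. The study compared 2 samples of primary culture of vestibular cells with 2 samples of primary culture of cochlear cells. The vestibular organs serve balance and the cochlea serves hearing. The labels give no strain, age, treatment or passage for either group, and they do not say whether samples 1 and 2 came from separate animals or cultures. The p-values below therefore measure only the spread between these samples, which may be technical.

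As background, a WNT ligand signals by bringing together a Frizzled receptor and the co-receptor LRP5 or LRP6, which stabilises beta-catenin in the cell. Secreted frizzled-related proteins carry a cysteine-rich domain like that of Frizzled and can bind WNT ligands outside the cell, as can WIF1. DKK1 and DKK2 instead bind the LRP co-receptors, together with the Kremen receptors, and SOSTDC1 (also called Wise) binds LRP co-receptors and also bone morphogenetic proteins. In the inner ear, WNT signals take part in forming the otic placode and in the proliferation of cells that can become hair cells.

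The values are FPKM, which corrects fragment numbers for the length of the transcript and for the size of the library, so levels of different genes can be set beside each other within a library. The libraries differed in makeup beyond their group. Summed FPKM of 12 epithelial markers was 1044 and 108 in vestibular libraries 1 and 2, compared with 2029 and 2434 in cochlear libraries 1 and 2. The 9 cartilage markers in the files summed to 769 and 4234 FPKM in vestibular libraries 1 and 2, compared with 221 and 221 FPKM in the cochlear libraries. The 11 macrophage markers summed to 8706 and 6623 FPKM in the vestibular libraries, against 6704 FPKM in cochlear library 1 and 29.8 FPKM in cochlear library 2. The 12 fibroblast markers summed to 3319 and 6536 FPKM in vestibular cultures, against 1540 and 1040 FPKM in cochlear cultures. Most genes that define hair cells were near the floor, and Atoh1 reached at most 0.1001 FPKM in any library. The 2 of 10 hair cell markers with at least 1 FPKM in all 4 libraries were Myo7a and Espn. Myo7a had 13.4 and 8.93 FPKM in vestibular and 9.83 and 5.81 FPKM in cochlear libraries. Espn had 4.59 and 4.53 FPKM in vestibular and 7.95 and 17.2 FPKM in cochlear libraries. Of the supporting cell markers, Sox2 had 1.86 and 1.30 FPKM in vestibular cultures, against 0.411 and 0.201 FPKM in cochlear cultures. In bulk RNA, fewer cells of a type and less RNA per cell cannot be told apart, and this holds for every gene below.

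The inhibitor genes did not move as a block. Sfrp2, Sfrp4 and Dkk3 stood 3.25-fold to 5.26-fold higher in vestibular than in cochlear cultures by mean FPKM, whereas the means of Sfrp1 and Dkk2 were 4.15-fold and 2.38-fold higher in cochlear cultures. Of the 10 genes, 7 had a mean of at least 1 FPKM over the 4 libraries and were tested, and Sfrp5, Dkk1 and Sostdc1 did not reach that level. Limma, which shares its estimate of spread across genes, called 0 of these 7 genes at an adjusted p of 0.05, and it called 4 of all 13200 genes tested (0.0303%). At an unadjusted p under 0.05 it placed 3 of the 7 higher in vestibular cultures, beside 7.61% of all genes tested, and 2 lower, beside 10.6%. The libraries of the groups did not overlap in 6 of the 7 genes, against 55.3% of all genes tested, with 4 of them higher in vestibular cultures (26.9% of all genes tested) and 2 lower (28.4% of all genes tested). With 2 samples against 2, the 6 ways to divide the libraries hold an exact permutation test to a 2-sided p of at least 2 in 6, so no single gene could be called that way.

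**Figure D1:**
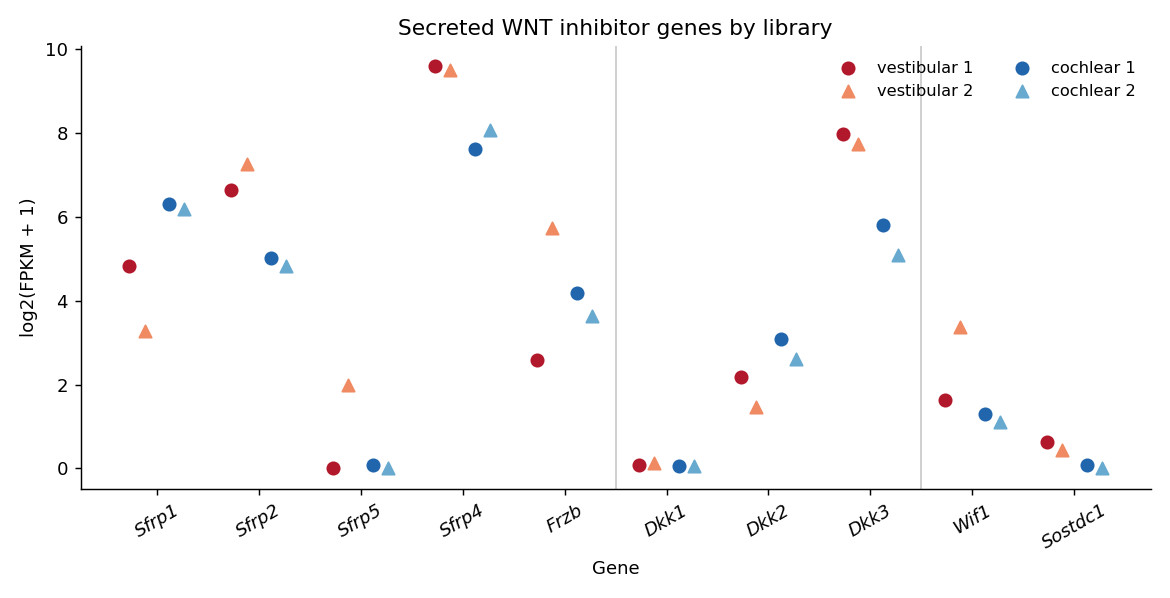
Level of each inhibitor gene as log2(FPKM + 1) in vestibular libraries 1 and 2 (red circles and orange triangles) and cochlear libraries 1 and 2 (dark blue circles and light blue triangles). Sfrp2, Sfrp4 and Dkk3 lie higher in both vestibular libraries, Sfrp1 and Dkk2 lie lower, and Frzb spreads widest between the vestibular libraries.

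Among the frizzled-related genes, Sfrp1, Sfrp2 and Sfrp5 form the subgroup of closest sequence. Sfrp2 (GRCm38, the assembly that mm10 names, chromosome 3, 83766321 to 83774316, plus strand, 3 exons) had 98.6 and 151 FPKM in vestibular libraries 1 and 2, compared with 31.5 and 27.3 FPKM in cochlear libraries 1 and 2. The vestibular values were the higher pair, and the gap was wider than the 1.53-fold spread between the vestibular libraries. The log2 difference of Sfrp2, vestibular minus cochlear on the log2(FPKM + 1) scale, was 2.02 (SE 0.25, 95% interval 1.30 to 2.74, limma adjusted p = 0.112). Sfrp2 overlaps the antisense gene Gm26771. The kit is stranded, but the strand setting of the counting is not given in the sources used here, so reads of the antisense partner cannot be told apart.

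Sfrp1 (chromosome 8, 23411502 to 23449632, plus strand, 3 exons) went the other way. It had 27.3 and 8.73 FPKM in vestibular libraries 1 and 2, compared with 78.0 and 71.6 FPKM in cochlear libraries 1 and 2. The cochlear libraries lay close together, 1.09-fold apart, while the vestibular libraries were 3.13-fold apart. The log2 difference of Sfrp1 was -2.19 (SE 0.58, 95% interval -3.84 to -0.54, limma adjusted p = 0.218). It was -1.42 without vestibular library 2 and -2.96 without vestibular library 1, so its size varied with the vestibular library used, although its sign did not.

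Sfrp5 was near 0 outside a single library. It had 2.95 FPKM in vestibular library 2 and was listed at 0 in vestibular library 1, against 0.0545 FPKM in cochlear library 1 and a listing of 0 in cochlear library 2. An exact 0 in these files may be a failed estimate, since the ribosomal protein gene Rpl26, which every cell uses, is also listed at 0.

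Sfrp4 and Frzb make up the second frizzled-related subgroup. Sfrp4 (chromosome 13, 19623104 to 19632994, plus strand) was the most abundant of the 10 inhibitor genes in every library. It had 767 and 722 FPKM in vestibular libraries 1 and 2, compared with 195 and 264 FPKM in cochlear libraries 1 and 2. The values of each group lay close together and the groups did not overlap. The log2 difference of Sfrp4 was 1.71 (SE 0.20, 95% interval 1.14 to 2.29, limma adjusted p = 0.108), and Sfrp4 ranked at percentile 99.7 of all symbols in both vestibular libraries, against 98.5 and 98.9 in the cochlear libraries.

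Frzb, also known as Sfrp3 and best known from developing cartilage, had no common direction. It had 4.98 and 52.2 FPKM in vestibular libraries 1 and 2, compared with 17.0 and 11.3 FPKM in cochlear libraries 1 and 2. Vestibular library 1 was the lowest of the 4 and vestibular library 2 the highest, so the groups overlapped, and the vestibular libraries were 10.5-fold apart. The log2 difference of Frzb was 0.26 (SE 1.18, 95% interval -3.11 to 3.63, limma adjusted p = 0.921). This interval covers large differences in either direction.

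Of the Dickkopf genes, Dkk3 was the most abundant in every library. DKK3 is a divergent member of its family, not known to inhibit WNT through LRP in the way DKK1 does. The gene (chromosome 7, 112116017 to 112159057, minus strand, 8 exons) had 248 and 211 FPKM in vestibular libraries 1 and 2, compared with 54.6 and 32.7 FPKM in cochlear libraries 1 and 2. No vestibular library came near a cochlear library. At 2.41 (SE 0.29, 95% interval 1.57 to 3.25, limma adjusted p = 0.112), its log2 difference was the largest among the 7 genes tested that were higher in vestibular cultures.

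Dkk2, which encodes an LRP5 and LRP6 ligand, was low and lay the other way. Its values were 3.53 and 1.75 FPKM in vestibular libraries 1 and 2, compared with 7.495 and 5.08 FPKM in cochlear libraries 1 and 2. The groups did not overlap, but vestibular library 1 and cochlear library 2 were close. The log2 difference of Dkk2 was -1.03 (SE 0.35, 95% interval -2.02 to -0.03, limma adjusted p = 0.267), and the pseudocount of 1 makes this an understatement for so low a gene.

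Dkk1, the best studied LRP-binding inhibitor, was at the floor throughout, with 0.0516 and 0.0929 FPKM in vestibular libraries 1 and 2, compared with 0.0455 and 0.0445 FPKM in cochlear libraries 1 and 2. How many fragments lie behind these values is unknown, and no difference is read from them.

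Sequence upstream of the RefSeq transcript start was held for 6 of the 10 genes (Sfrp2, Sfrp5, Frzb, Dkk1, Dkk2 and Wif1, build GRCm38.p6), and not for Sfrp1, Sfrp4, Dkk3 and Sostdc1. The 250 bases upstream of Sfrp2 and Dkk2 are shown because both genes lie on the plus strand of chromosome 3 and differed in opposite directions. Capitals mark matches on either strand to the TATA box (searched as TATAAA), to the CCAAT box (searched by the letters of its name) or to the GC box (searched as GGGCGG). The Sfrp2 window is chr3:83766071-83766320 and the Dkk2 window chr3:132085042-132085291, each printed 5′ to 3′ on the plus strand.
Sfrp2: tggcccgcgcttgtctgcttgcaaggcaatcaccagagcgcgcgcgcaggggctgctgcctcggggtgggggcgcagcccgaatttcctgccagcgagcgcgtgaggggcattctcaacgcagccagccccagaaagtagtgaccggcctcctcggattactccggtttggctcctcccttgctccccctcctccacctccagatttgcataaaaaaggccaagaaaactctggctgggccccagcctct
Dkk2: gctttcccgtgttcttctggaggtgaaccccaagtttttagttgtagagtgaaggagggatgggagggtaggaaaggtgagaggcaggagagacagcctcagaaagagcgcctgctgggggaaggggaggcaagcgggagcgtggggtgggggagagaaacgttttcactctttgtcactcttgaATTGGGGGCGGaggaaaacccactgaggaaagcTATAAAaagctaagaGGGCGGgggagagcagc
The Dkk2 window held a TATA box match at position -32 from the start, a reverse-strand CCAAT match at -65 directly beside a GC box match, and 2 GC box matches in all. None of these letters occurred in the Sfrp2 window. Among the remaining windows, those of Dkk1 and Wif1 held a TATA box match, and those of Sfrp5, Frzb and Wif1 held GC box matches. The GENCODE annotation starts Dkk1 and Frzb farther upstream than RefSeq does. The TATA box match of Dkk1 (-54) and the GC box match of Frzb (-51) thus lie inside those genes by GENCODE. The TATA box match of Wif1 was on the reverse strand at -232. Wif1 was higher in both vestibular libraries, as was Sfrp2. Of all 32851 upstream windows of this length, 12.4% held a TATA box match, 33.8% a CCAAT match and 32.7% a GC box match. The matches describe the letters only, not the binding of a factor.

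The same windows were searched on both strands for CTTTGNN where each N is A or T, which covers common forms of the site read by the TCF and LEF factors that carry the WNT signal into the nucleus. The window of Dkk1 was the only 1 of the 6 with a match, and it held 2, against 14.8% of all windows with at least 1. A match in 1 of 6 windows is near that share. The GENCODE annotation starts Dkk1 farther upstream than RefSeq does, and both matches lie in the untranslated part of its first GENCODE exon, so they are not printed.

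WIF1, which binds WNT ligands directly through its WIF domain, had a weakly expressed gene in these cultures. Wif1 (chromosome 10, 121033960 to 121100650, plus strand) had 2.11 and 9.40 FPKM in vestibular libraries 1 and 2, compared with 1.45 and 1.15 FPKM in cochlear libraries 1 and 2. Both vestibular libraries were above both cochlear libraries, but vestibular library 1 only narrowly. The log2 difference of Wif1 was 1.31 (SE 0.66, 95% interval -0.59 to 3.20, limma adjusted p = 0.381), and without vestibular library 2 it was 0.44.

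Sostdc1 was at 0.543 and 0.366 FPKM in vestibular libraries 1 and 2, compared with 0.0598 FPKM in cochlear library 1 and a listing of 0 in cochlear library 2. It did not reach the level for testing, and no fold is given.

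**Figure D2:**
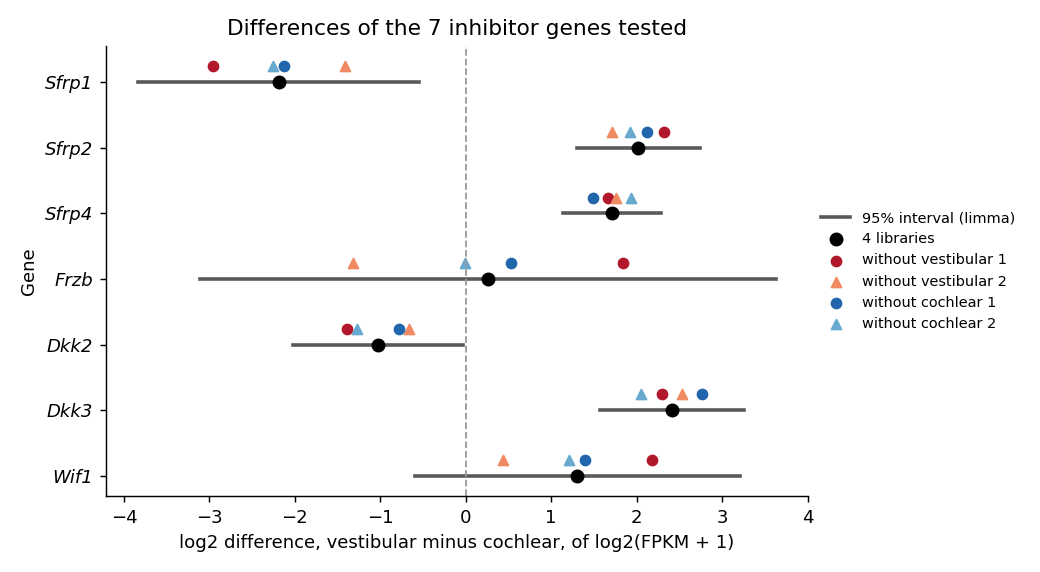
Log2 difference (vestibular minus cochlear, of log2(FPKM + 1)) of the 7 inhibitor genes tested, with black points for all 4 libraries, grey bars for the 95% interval and coloured marks for the difference with a single library left out. Frzb has marks on both sides of 0, from -1.32 to 1.84. All other genes keep their side of 0, and Wif1 reaches down to 0.44.

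The rank order of the genes differed between the groups. In vestibular cultures the mean level ran from Sfrp4 through Dkk3, Sfrp2, Frzb, Sfrp1 and Wif1 to Dkk2, and Sfrp5, Sostdc1 and Dkk1 were too low to be ordered. The first 3 of these were separate from their neighbours in both libraries, and the libraries of neighbouring genes overlapped from Frzb down to Dkk2. In cochlear cultures Sfrp1 stood second after Sfrp4, ahead of Dkk3, Sfrp2, Frzb, Dkk2 and Wif1, and neighbours among these 7 did not overlap. Dkk1, Sostdc1 and Sfrp5 followed at or near 0 and could not be ordered.

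Ratios of 2 genes within a library do not depend on how libraries were scaled to each other. The ratio of Sfrp4 to Sfrp1 FPKM was 28.1 and 82.7 in vestibular libraries 1 and 2, compared with 2.49 and 3.68 in cochlear libraries 1 and 2. Sfrp2 over Sfrp1 gave 3.61 and 17.3 in vestibular cultures, against 0.403 and 0.381 in cochlear cultures. Thus Sfrp2 transcripts exceeded those of Sfrp1 in both vestibular libraries, and Sfrp1 exceeded Sfrp2 in both cochlear libraries. Dkk3 over Dkk2 was 70.3 and 120.6 in vestibular libraries 1 and 2, compared with 7.28 and 6.44 in the cochlear libraries. Between Sfrp4 and Sfrp2, which stood higher in the same cultures, the ratio was 7.78 and 4.79 in vestibular and 6.19 and 9.67 in cochlear libraries, so the groups overlapped.

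Summed over the 10 genes, the inhibitors reached 1152 and 1159 FPKM in vestibular libraries 1 and 2, compared with 385 and 413 FPKM in cochlear libraries 1 and 2. The vestibular sums were nearly equal although Frzb, Sfrp1 and Sfrp2 differed between those libraries. Sfrp4 alone made 66.5% and 62.3% of the sum in vestibular libraries, against 50.6% and 63.9% in cochlear libraries. The share of Sfrp1 was 2.37% and 0.753% in vestibular libraries 1 and 2, compared with 20.3% and 17.3% in cochlear libraries 1 and 2. Dkk3 took 21.6% and 18.2% of the vestibular sums, against 14.2% and 7.91% of the cochlear sums.

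**Figure D3:**
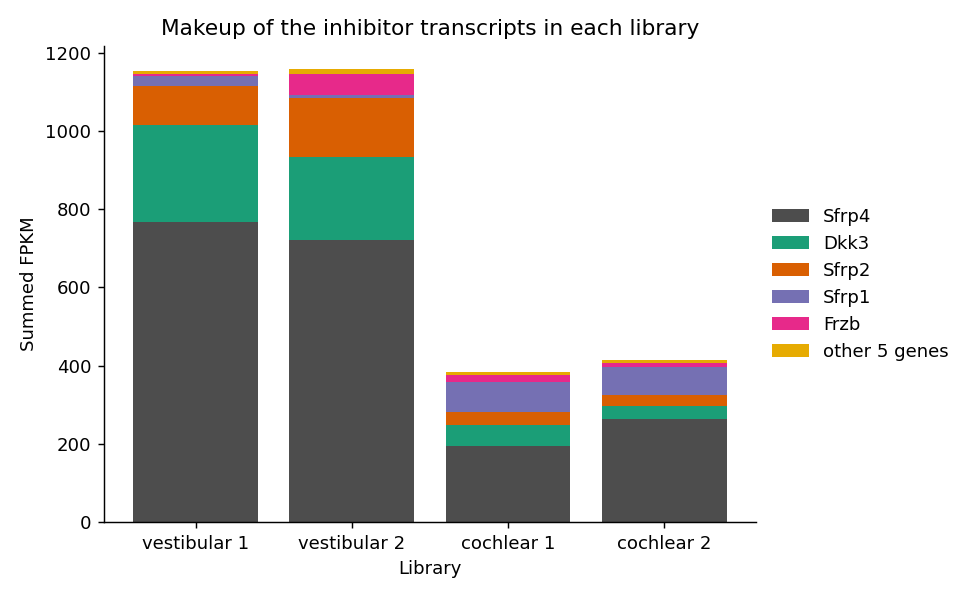
Summed FPKM of the 10 inhibitor genes in each library, with a colour for each of the 5 most abundant genes and another for the remaining 5. The vestibular bars reach 1152 and 1159 FPKM and the cochlear bars 385 and 413 FPKM; Sfrp4 is the largest part of each bar, and the Sfrp1 part is the one that is larger in the cochlear bars.

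Markers of other cell types moved beside these genes. Sfrp1 was lowest in vestibular library 2, where the epithelial marker sum was also lowest, and higher in the cochlear libraries, where that sum was highest. The ratio of Sfrp1 to Epcam, an epithelial adhesion gene, was 0.554 and 0.613 in vestibular libraries 1 and 2, compared with 0.692 and 0.484 in cochlear libraries 1 and 2, so the groups overlapped. Against Cdh1, the epithelial cadherin gene, the ratio was 0.848 and 0.258 in vestibular and 0.641 and 0.490 in cochlear libraries. Of the 12 epithelial markers, 11 were lower in both vestibular libraries than in both cochlear libraries (28.4% of all genes tested), and none was listed at 0 throughout. Both ratios were chosen after the values were seen, and the part of the epithelial markers in the Sfrp1 difference was not tested.

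Between the groups, Sfrp2, Sfrp4 and Dkk3 lay on the same side as the fibroblast markers, of which 10 of 12 stood above both cochlear libraries in both vestibular libraries (26.9% of all genes tested). Within the groups, Sfrp2 ran with the fibroblast sum, Sfrp4 did not, and Dkk3 did so in the cochlear libraries only. Vestibular library 2 had the higher sum and Sfrp2 of its group, but the lower Sfrp4 and Dkk3. Cochlear library 1 had the higher sum, Sfrp2 and Dkk3 of its group, but the lower Sfrp4. The 8 markers of pericytes and smooth muscle summed to 254 and 415 FPKM in vestibular libraries, against 139 and 116 FPKM in cochlear libraries. Most of the vestibular sums came from Acta2 (72.1 and 165 FPKM) and Tagln (149 and 192 FPKM). Of the 4 tested, these 2 were higher in both vestibular libraries (26.9% of all genes tested), and Rgs5 and Notch3 overlapped. The other markers of this list had a mean under 1 FPKM. The 8 bone markers summed to 195 and 120 FPKM in vestibular libraries, compared with 38.1 and 113 FPKM in cochlear libraries. Dmp1 made up 171 and 80.6 FPKM of the vestibular bone sums. Alpl made up 91.7 FPKM of the sum in cochlear library 2 and was lower in both vestibular libraries, at 4.20 and 3.05 FPKM. Of the 4 bone markers tested, 3 were higher in both vestibular libraries (26.9% of all genes tested) and 1, Alpl, was lower (28.4% of all genes tested). The other bone markers had a mean under 1 FPKM. Pdgfra, a receptor gene of mesenchymal cells, was nearly level, at 28.5 and 29.4 FPKM in vestibular and 24.6 and 22.1 FPKM in cochlear libraries. Relative to Pdgfra, Sfrp4 stood at 26.9 and 24.6 in vestibular libraries 1 and 2, compared with 7.90 and 12.0 in cochlear libraries 1 and 2. Dkk3 over Pdgfra was 8.72 and 7.18 in vestibular cultures, against 2.22 and 1.48 in cochlear cultures. For Sfrp2 over Pdgfra the values were 3.46 and 5.13 in vestibular libraries, compared with 1.28 and 1.24 in cochlear libraries. None of these 3 ratios overlapped between the groups, but Pdgfra was chosen after its values were seen and had the smallest fold between group means of the 12 fibroblast markers. Over each of the 12 markers in turn, the ratio was higher in both vestibular libraries for 8 markers with Sfrp2, 4 with Sfrp4 and 8 with Dkk3, and the groups overlapped for the others. Against the collagen gene Col1a2, for example, Sfrp2 gave 0.0865 and 0.0436 in vestibular libraries 1 and 2, compared with 0.0639 and 0.125 in cochlear libraries 1 and 2. The part of these cells in the Sfrp2, Sfrp4 and Dkk3 differences was not tested.

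Macrophage markers were at 29.8 FPKM in sum in cochlear library 2 and at 6623 FPKM or more in the vestibular libraries. Without cochlear library 2, the log2 differences were 1.92 for Sfrp2, 1.93 for Sfrp4, 2.05 for Dkk3 and -2.25 for Sfrp1. Their limma adjusted p in that fit was 0.563 for Sfrp2, 0.522 for Sfrp4, 0.501 for Dkk3 and 0.654 for Sfrp1. The part of macrophages in these differences was not tested.

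Frzb and Wif1 were both highest in vestibular library 2, which also had the highest cartilage marker sum and the melanocyte gene Dct at 166 FPKM, against 0.561 FPKM in vestibular library 1. Dct was listed at 0 in both cochlear libraries. In vestibular library 1, cartilage markers summed to 769 FPKM, above the cochlear libraries, and Frzb was below them. The 6 melanocyte markers summed to 3.41 and 226 FPKM in vestibular libraries 1 and 2, compared with 7.08 and 12.2 FPKM in cochlear libraries. The sum of the 6 meningeal markers also peaked in vestibular library 2. It was 554 and 3547 FPKM in vestibular libraries 1 and 2, compared with 426 and 566 FPKM in cochlear libraries 1 and 2. The prostaglandin synthase gene Ptgds made up 3402 FPKM of that peak. Of the 4 meningeal markers tested, 3 were higher in both vestibular libraries (26.9% of all genes tested) and 1, Aldh1a2, was lower (28.4% of all genes tested). Aldh1a2 had 69.8 and 64.3 FPKM in vestibular and 298 and 399 FPKM in cochlear libraries. The 6 Schwann cell markers summed to 73.8 and 207 FPKM in vestibular libraries, compared with 151 and 142 FPKM in cochlear libraries. The part of these cells in the Frzb and Wif1 values was not tested.

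**Figure D4:**
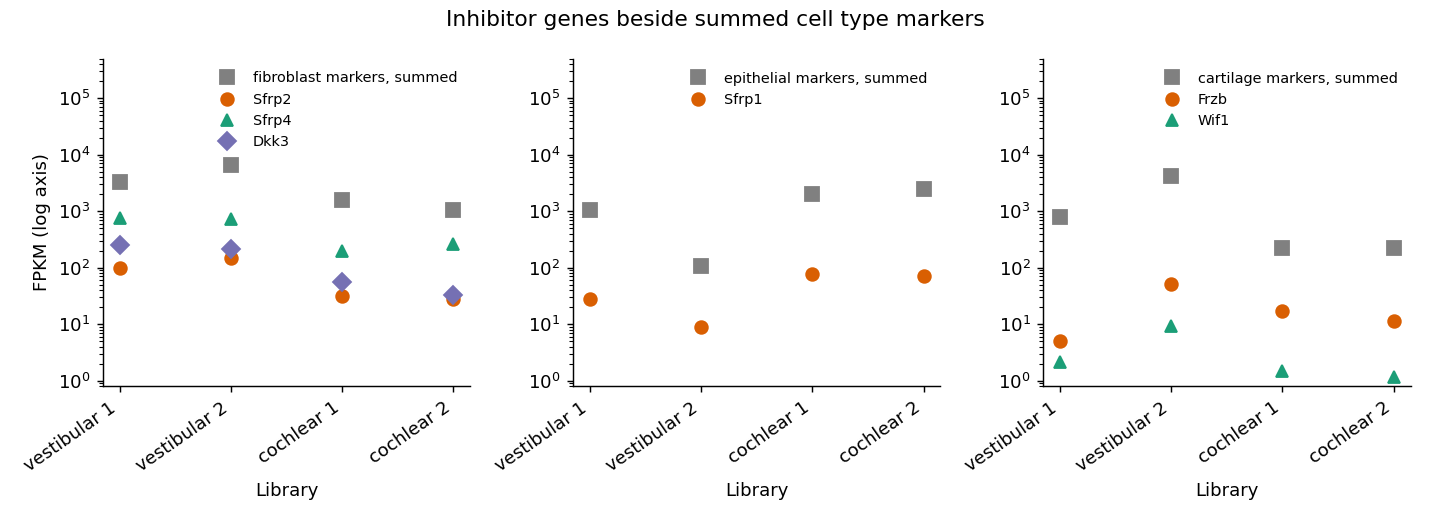
FPKM on a log axis by library for Sfrp2, Sfrp4 and Dkk3 beside the summed fibroblast markers (left), Sfrp1 beside the summed epithelial markers (middle), and Frzb and Wif1 beside the summed cartilage markers (right), with grey squares for the marker sums. Sfrp1 and the epithelial sum are both lowest in vestibular library 2, at 8.73 and 108 FPKM, and Frzb and Wif1 are both highest there, at 52.2 and 9.40 FPKM.

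To place each gene among the rest, the genes of nearest pattern were taken from 7361 genes with a mean of at least 10 FPKM, by the Euclidean distance of centred log2(FPKM + 1) over the 4 libraries. Among the genes nearest to Sfrp1 were Sox10 and Sel1l3 (distances 0.256 and 0.344). Sox10, a transcription factor gene of neural crest and otic cells, had 37.7 and 15.5 FPKM in vestibular libraries 1 and 2, compared with 108 and 100.4 FPKM in cochlear libraries 1 and 2. Nearest to Sfrp2 were the growth hormone receptor gene Ghr (0.0908), the forkhead gene Foxc2 (0.202) and the elastic fibre gene Fbln5 (0.321). Sfrp4 lay nearest to Igfbp2 (0.173), Uchl1 (0.329) and Hs6st2 (0.334). The insulin-like growth factor binding protein gene Igfbp2 had 1751 and 1742 FPKM in vestibular libraries, against 425 and 677 FPKM in cochlear libraries.

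The genes nearest to Frzb included the growth factor gene Igf2 (0.25) and the connexin gene Gjb2 (0.577). Igf2 had 37.1 and 369 FPKM in vestibular libraries 1 and 2, compared with 97.3 and 77.6 FPKM in cochlear libraries 1 and 2, which repeats the low and high extremes of Frzb. Dkk3 was nearest to the basement membrane gene Nid2 (0.403), Cbr2 (0.457) and the fibrillin gene Fbn1 (0.495). Dkk2 was nearest to Eno1b (0.0781), Pla2g7 (0.138) and the interleukin receptor gene Il4ra (0.146), and Wif1 to the guidance gene Slit2 (0.0309), Spats2l (0.14) and Lpar1 (0.259). Among the inhibitors themselves, the closest pair was Sfrp2 and Sfrp4 (0.733), followed by Sfrp2 and Dkk3 (0.802), while Sfrp1 and Dkk3 were farthest apart (4.71). Many genes share such a pattern when only 4 libraries define it, so these distances are descriptions.

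The rest of the WNT pathway was read from 5 further lists, of which 66 of 84 genes were tested. Limma called 0 of the 66 at the adjusted threshold, and at an unadjusted p under 0.05 it placed 6 higher in vestibular cultures, beside 7.61% of all genes tested, and 12 lower, beside 10.6%. The median log2 difference was 1.31 over the 7 inhibitors tested, -0.25 over 10 ligands, 0.03 over 17 receptors and co-receptors, 0.76 over 10 other modulators, 0.08 over 16 transducers and nuclear factors and -0.74 over 13 feedback and target genes. Over all genes tested it was 0.01. On leaving out a single library, the medians ran from 0.44 (without vestibular library 2) to 1.84 (without vestibular library 1) for the inhibitors, -0.73 to 0.22 for the ligands, -0.11 to 0.33 for the receptors, 0.18 to 0.82 for the other modulators, -0.02 to 0.14 for the transducers and -0.94 to -0.05 for the feedback and target genes. The median of the ligands thus turned sign, and it was 0.22 without vestibular library 1 and 0.01 without cochlear library 2. Below, each gene of these 5 lists printed with FPKM but no limma p had an unadjusted p above 0.05 or was not tested. Genes beyond the most abundant 4 of a list were chosen after their values were seen.

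WNT ligands went both ways. Wnt7b, an epithelial ligand gene in many organs, had 20.4 and 1.96 FPKM in vestibular libraries 1 and 2, compared with 52.8 and 78.2 FPKM in cochlear libraries 1 and 2. Wnt9a had 7.47 and 3.60 FPKM in vestibular and 14.2 and 19.9 FPKM in cochlear libraries (log2 difference -1.51, limma adjusted p = 0.212). Wnt16 lay the other way, at 18.7 and 50.2 FPKM in vestibular and 10.5 and 5.38 FPKM in cochlear libraries (log2 difference 1.89, limma adjusted p = 0.253). Wnt5a, the main ligand of beta-catenin-independent signalling, was abundant and overlapped, with 26.1 and 58.1 FPKM in vestibular libraries against 39.1 and 66.4 FPKM in cochlear libraries. Wnt4 had the smallest limma p of the ligands, with 2.29 and 2.06 FPKM in vestibular and 8.12 and 8.91 FPKM in cochlear libraries (log2 difference -1.58, adjusted p = 0.0914). Summed over 19 ligands, FPKM was 87.8 and 160 in vestibular libraries, compared with 137 and 202 in cochlear libraries, which overlapped. The ratio of the inhibitor sum to the ligand sum was 13.1 and 7.24 in vestibular libraries 1 and 2, compared with 2.81 and 2.05 in cochlear libraries 1 and 2, and did not overlap.

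The most abundant receptor genes differed little, with log2 differences of 0.03 to 0.34. The Frizzled genes Fzd7 (46.7 and 57.4 FPKM in vestibular, against 47.1 and 43.7 FPKM in cochlear libraries) and Fzd1 (24.7 and 54.6 FPKM, against 34.2 and 30.3 FPKM in cochlear libraries) overlapped between groups. Lrp5, a co-receptor bound by DKK proteins, had 26.7 and 44.7 FPKM in vestibular and 30.8 and 37.3 FPKM in cochlear libraries. Its limma log2 difference was 0.03, with a 95% interval from -0.83 to 0.88. Kremen1, which helps DKK1 remove LRP6 from the cell surface, had 20.6 and 20.9 FPKM in vestibular and 22.7 and 22.8 FPKM in cochlear libraries. Ryk, a WNT co-receptor gene, had 36.7 and 42.4 FPKM in vestibular and 30.9 and 31.2 FPKM in cochlear libraries. At an unadjusted p under 0.05, limma placed 2 of the 17 receptor genes higher in vestibular cultures (Fzd4 and Fzd8, beside 7.61% of all genes tested) and 2 lower (Fzd3 and Fzd6, beside 10.6%), which is near the share of all genes. Fzd6 had 9.87 and 9.89 FPKM in vestibular and 20.3 and 33.3 FPKM in cochlear libraries (log2 difference -1.32, limma adjusted p = 0.179).

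Other modulators outside the cell included Igfbp4, whose protein binds insulin-like growth factors and can also inhibit WNT signalling. It had 815 and 909 FPKM in vestibular and 544 and 301 FPKM in cochlear libraries (log2 difference 1.09, limma adjusted p = 0.251). Rspo3, whose product amplifies WNT signals, had 20.2 and 19.1 FPKM in vestibular libraries, against 2.66 and 4.66 FPKM in cochlear libraries (log2 difference 2.18, limma adjusted p = 0.109). Thus Rspo3, a gene of the opposite function, lay in the same direction as Sfrp2, Sfrp4 and Dkk3. Rspo1, another R-spondin gene, lay the other way. It had 2.25 and 2.78 FPKM in vestibular and 4.65 and 7.65 FPKM in cochlear libraries (log2 difference -0.996, limma adjusted p = 0.228). Rspo2 had 32.3 and 7.79 FPKM in vestibular and 10.6 and 2.25 FPKM in cochlear libraries and overlapped. Apcdd1, a membrane-bound WNT inhibitor gene, spread like Frzb, with 8.28 and 75.4 FPKM in vestibular and 35.2 and 33.6 FPKM in cochlear libraries. Wls, which carries WNT ligands to the cell surface, had 231 and 238 FPKM in vestibular and 223 and 254 FPKM in cochlear libraries, and its groups overlapped. Sost and Rspo4 were listed at 0 in every library.

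The most abundant transducers inside the cell had log2 differences of -0.20 to 0.32. Beta-catenin (Ctnnb1) had 299.8 and 343 FPKM in vestibular and 257 and 255 FPKM in cochlear libraries. The kinase genes Csnk1a1 and Gsk3a, which mark beta-catenin for destruction, had 94.1 and 102 FPKM (Csnk1a1) and 32.7 and 35.8 FPKM (Gsk3a) in vestibular libraries, against 111 and 114 FPKM (Csnk1a1) and 37.6 and 38.3 FPKM (Gsk3a) in cochlear libraries. Dvl1, a Dishevelled gene that relays the signal from Frizzled, had 26.6 and 25.6 FPKM in vestibular and 24.9 and 28.4 FPKM in cochlear libraries. Pygo1, a nuclear cofactor gene of beta-catenin, stood apart from the list, with 7.70 and 9.50 FPKM in vestibular and 4.02 and 3.05 FPKM in cochlear libraries (log2 difference 1.08, limma adjusted p = 0.157).

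Feedback and target genes of WNT signalling were lower in both vestibular libraries than in both cochlear libraries in 6 of 13 cases, beside 28.4% of all genes tested, and higher in 1, beside 26.9%. At an unadjusted p under 0.05, limma placed 5 of the 13 lower in vestibular cultures, beside 10.6% of all genes tested, and 0 higher, beside 7.61%, and at the adjusted threshold it called 0. Axin2, the feedback inhibitor often read as a measure of WNT activity, had 6.08 and 10.6 FPKM in vestibular libraries 1 and 2, compared with 14.6 and 17.8 FPKM in cochlear libraries 1 and 2 (log2 difference -0.92, limma adjusted p = 0.257). Tnfrsf19 had 6.59 and 9.88 FPKM in vestibular and 23.9 and 31.0 FPKM in cochlear libraries (log2 difference -1.64, limma adjusted p = 0.132). Rnf43, which removes Frizzled from the cell surface, had 2.73 and 4.36 FPKM in vestibular and 8.57 and 10.1 FPKM in cochlear libraries (log2 difference -1.20, limma adjusted p = 0.175). Lgr5, the R-spondin receptor gene of WNT-responsive progenitors, had 2.35 and 0.188 FPKM in vestibular and 18.9 and 6.57 FPKM in cochlear libraries (log2 difference -2.62, limma adjusted p = 0.235). Sp5, a transcription factor gene, had 0.443 and 0.748 FPKM in vestibular and 1.81 and 2.72 FPKM in cochlear libraries (log2 difference -1.03, limma adjusted p = 0.218). Nkd2 was also lower in both vestibular libraries, with 14.3 and 22.7 FPKM in vestibular and 33.8 and 27.98 FPKM in cochlear libraries.

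The remaining targets overlapped between the groups or lay higher in vestibular cultures. Ccnd1, the cyclin D1 gene, had 252 and 85.7 FPKM in vestibular and 190.2 and 359.9 FPKM in cochlear libraries, with a log2 difference of -0.83 although the groups overlapped. Znrf3, a close relative of Rnf43, was at 2.69 and 2.55 FPKM in vestibular and 2.58 and 2.64 FPKM in cochlear libraries. Nkd1 was the target that stood higher in both vestibular libraries, at 4.41 and 6.81 FPKM, against 2.38 and 3.70 FPKM in the cochlear libraries. The median over the 13 genes was -0.74 with 4 libraries and -0.05 without vestibular library 2. The epithelial marker sum was also lower in vestibular cultures, and its part in these target values was not tested.

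**Figure D5:**
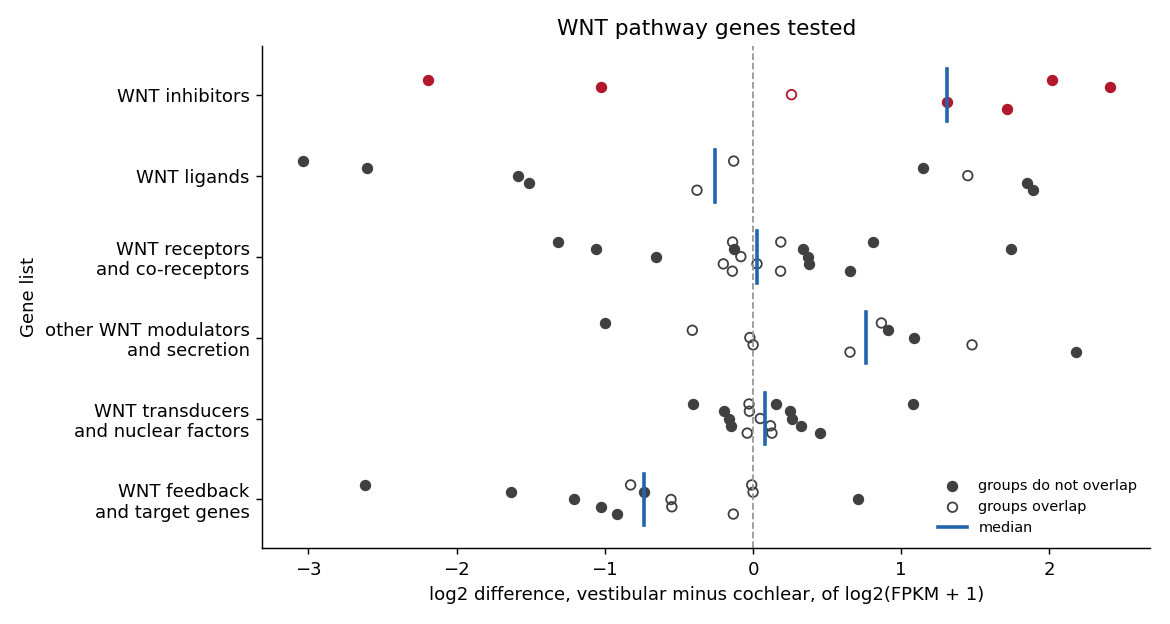
Log2 difference (vestibular minus cochlear, of log2(FPKM + 1)) of every tested gene in the 6 WNT lists, with red points for the inhibitors, filled points where the groups do not overlap, open points where they do, and a blue bar at each median. The inhibitors have the highest of the 6 medians, 1.31, and the feedback and target genes the lowest, -0.74, while the transducers lie close to 0.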

How the data were processed

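Total RNA of the cultures was made into libraries with a stranded TruSeq mRNA kit, per the labels' protocols. The authors deposited 1 FPKM value per gene symbol and sample, per the file headers. The submitters' processing notes name Cuffdiff 2.2.1, TopHat2 2.1.1, SAMtools 0.1.18 and Bowtie2 2.2.8, and the mm10 build. Settings, annotation, strand use and scaling were not given in these sources. Totals of FPKM ran from 479380 to 519122, and fragment numbers are unknown, so no counting interval is given.

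Genes with a mean of at least 1 FPKM over the 4 samples were kept (13200). Groups were compared on log2(FPKM + 1) with limma 3.58.1 in R 4.3.3 (eBayes with a trend, 2-sided, 1.71 prior degrees of freedom), with Benjamini-Hochberg adjustment over all genes kept. The fit was tested on simulated data. Differences are vestibular minus cochlear and are understated for low genes.

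The members and all lists were chosen with earlier results of these data known. Named genes were the 10 inhibitors, the 4 most abundant genes of each other WNT list and the 3 nearest genes by pattern, of which some are not reported here; others are marked. Gene positions came from GENCODE M21. Alternatives changed the pseudocount, filter, scaling, trend, replicate block and libraries.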

Additional observations from a re-analysis of the deposited data

How the results depend on the processing

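The number of WNT inhibitors called by limma was 0 under all 12 alternatives, as was the number of other WNT genes called. The number of inhibitors whose groups do not overlap ran from 4 of 5 (mean of at least 5 FPKM) to 7 of 7 (without either vestibular library), beside 55.9% of all genes at the higher filter, 80.5% without vestibular library 1 and 78.6% without vestibular library 2, since 1 library against 2 overlaps less often. Over all genes, 4 were called by the chosen settings, 73 with no filter on low values and 0 with a replicate block. Without any single library the count was 0 to 0, with 1018 to 2724 genes at an unadjusted p under 0.05. The cause of the larger count without a filter was not tested. Frzb changed sign, to -1.32 without vestibular library 2 and to -0.01 without cochlear library 2, with a range of -1.32 to 1.84 on leaving out a library. The other 80 log2 differences of inhibitors under alternatives kept their sign and stayed above the adjusted threshold, and the lowest adjusted p was 0.0928, for Dkk3. Under leaving out a library, log2 differences ran from -2.96 to -1.42 for Sfrp1, 1.72 to 2.32 for Sfrp2, 1.49 to 1.93 for Sfrp4, 2.05 to 2.77 for Dkk3, -1.39 to -0.66 for Dkk2 and 0.44 to 2.18 for Wif1. Medians of the WNT lists moved by more than their spread between replicates in 20 recomputations and by less in 52. Samples that share a number correlated at 0.04 in their deviations from the group means over 13200 genes, so the numbers were not taken to pair the samples. In fits without a library, the lone sample was assumed to vary like the other group. With 2 samples a group and unknown fragment numbers, differences under about 1 FPKM cannot be read.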
